A study of Mus musculus with 6 samples.

Results

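Semaphorins are cell-surface or secreted guidance cues, and plexins are the receptors that most of them bind. Described here are 10 genes of this system: the ligands Sema4a, Sema4b, Sema4c, Sema4d, Sema6d and Sema7a, the plexins Plxna1, Plxnb2 and Plxnd1, and the neuropilin Nrp1. They were taken by gene symbol and are 10 of the 54532 genes listed for each library, 6 ligands and 4 receptors. The choice was made with the difference between control and PGAM5 KD cells already known, so that difference is given for these genes as a description. No p-value is given for them, and where calls of the fit over all genes are counted, the count was favoured by the choice and supports nothing. The lists of other family genes, co-receptors and effectors were also drawn up with earlier results of these data known. Their counts and p-values are likewise descriptions.

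RNA-seq was done on 6 libraries, 3 of control and 3 of PGAM5 KD immortalized bone marrow-derived macrophages (iBMDMs), a line made from marrow of wild-type mice (the methods give C57Bl/6 for wild-type mice) with retroviruses that carry v-raf and v-myc. Control cells had received a lentivirus with a control shRNA and PGAM5 KD cells one with an shRNA against Pgam5, which encodes a mitochondrial phosphatase. Both groups were treated with LPS, a Toll-like receptor 4 ligand, at 100 ng/ml for 4 hours, so no library shows the unstimulated level. The number of shRNAs, and whether the cells were clonal, is not given in the sources used here. Whether the replicates were separate cultures is not given either, so p-values measure the spread between these libraries, which may be technical.

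Plexins carry an intracellular domain that acts on the small GTPases R-Ras and Rap, and semaphorin binding at the outside changes the cytoskeleton and adhesion of the receiving cell. Neuropilins have no such domain and serve as co-receptors, chiefly for the secreted class 3 semaphorins. In the immune system class 4 semaphorins and Sema7a are best known for signals between myeloid cells and lymphocytes, and several plexins steer the migration of macrophages and dendritic cells.

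The libraries held between 18163464 and 24388915 fragments, recovered from FPKM (fragments scaled to exon length and library depth). Pgam5 was at 17.1, 13.0 and 13.4 FPKM in control and at 4.33, 5.75 and 4.53 FPKM in PGAM5 KD libraries (log2 fold change −1.40, SE 0.13, adjusted p = 0.000358, limma). Of 7 macrophage markers 6 were above 1 FPKM and Mertk was at 0, and the marker lists of neutrophils, fibroblasts, lymphocytes and endothelial cells each summed to at most 0.592 FPKM in any library. The macrophage markers summed to 2347 to 2424 FPKM in control and 1828 to 1866 FPKM in PGAM5 KD libraries, but they moved in both directions. Lyz2, Csf1r and Cd68 fell by 0.40, 0.64 and 0.20 on the log2 scale, and Fcgr1, Adgre1 and Itgam rose by 1.51, 0.85 and 0.68 (adjusted p of at most 0.00322, limma). The part of these shifts in the results that follow was not tested. Gapdh split the libraries in a way that did not follow the groups, with 66.1, 73.9 and 61.2 FPKM in control 2, PGAM5 KD 1 and PGAM5 KD 3 and 7.37 to 8.91 FPKM in the other 3.

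Sema4d and Plxnd1 were lower in PGAM5 KD than in control cells, Sema4b was slightly lower, and Plxnb2, the most abundant of the 10, was at the same level in both groups. Sema4a was also close to its control level, and Sema4c, Sema6d, Sema7a and Nrp1 were near or at the bottom of the measurable range. The plot of all 10 genes by library shows these values. In bulk RNA, fewer cells that express a gene and less RNA per cell cannot be told apart.

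**Figure D1:**
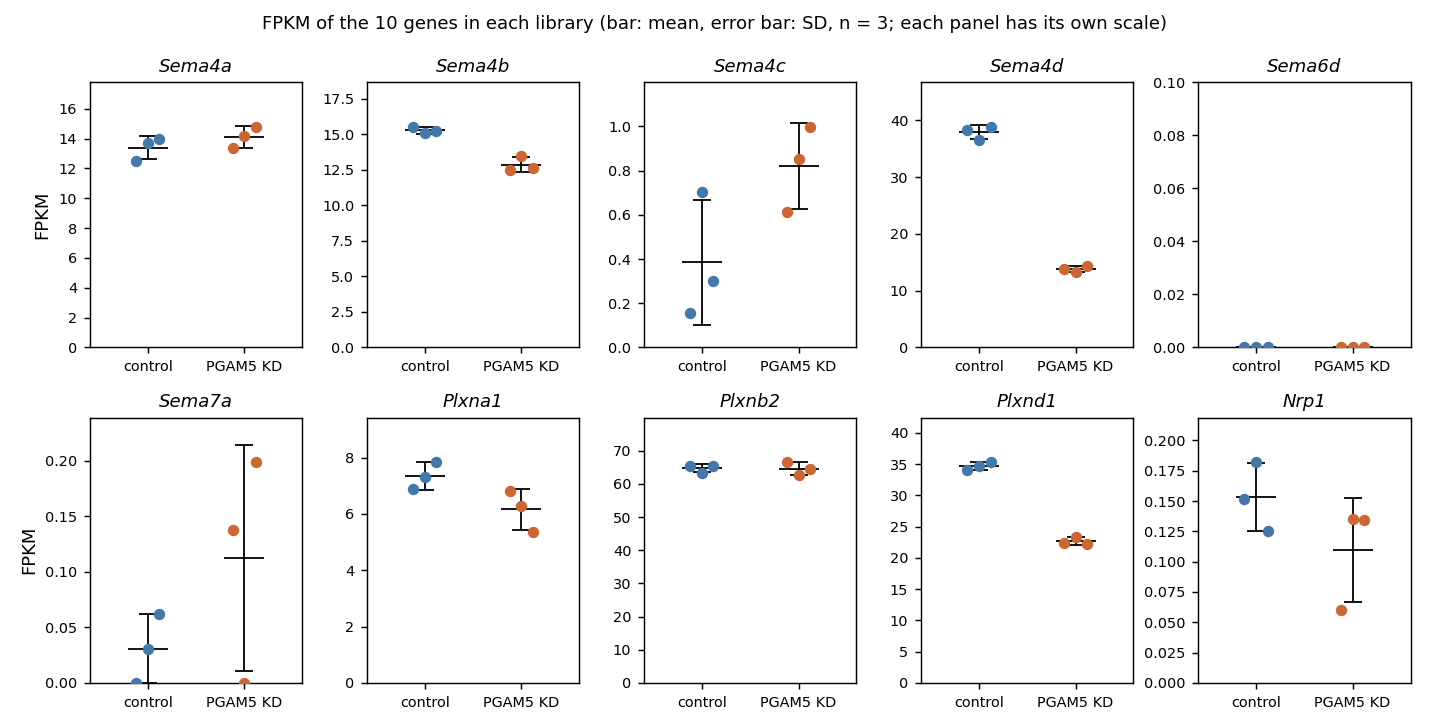
FPKM of each of the 10 genes in the 3 control and 3 PGAM5 KD libraries (points), with the group mean (bar) and SD (error bar), each panel on its own scale from 0. The PGAM5 KD points of Sema4d lie between 13.4 and 14.3 FPKM, below the control points between 36.5 and 38.9 FPKM, while both groups of Plxnb2 lie between 62.6 and 66.6 FPKM.

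Among the ligands, Sema4d (ENSMUSG00000021451, chr13:51685529-51793747, minus strand, GRCm38) showed the largest difference. It encodes CD100, a transmembrane semaphorin that can be shed from the cell and that binds plexin-B1, plexin-B2 and, on lymphocytes and myeloid cells, CD72. Sema4d was at 38.3, 36.5 and 38.9 FPKM in the 3 control libraries and at 13.8, 13.4 and 14.3 FPKM in the 3 PGAM5 KD libraries. The groups were far apart, and each varied little, with a coefficient of variation of 3.28% in control and 3.36% in PGAM5 KD libraries. Control libraries had 2.74 times the Sema4d FPKM of PGAM5 KD libraries, a log2 fold change of −1.39 (SE 0.04) on the log2(FPKM + 1) scale, which understates changes of genes at low levels. This rested on 5343 to 5833 fragments per control library and 1864 to 2676 per PGAM5 KD library.

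Sema4b (ENSMUSG00000030539, chr7:80186841-80226527, plus strand) encodes another transmembrane class 4 semaphorin. It was at 15.5, 15.1 and 15.2 FPKM in control and 12.5, 13.4 and 12.6 FPKM in PGAM5 KD libraries. Every PGAM5 KD library was below every control library, by a much smaller margin than for Sema4d, with a ratio of PGAM5 KD to control of 0.840 and a log2 fold change of −0.24 (SE 0.05).

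Sema4a (ENSMUSG00000028064, chr3:88435959-88461182, minus strand) encodes a class 4 ligand of plexin-B receptors and plexin-D1 that acts on T cells and endothelial cells. It was at 12.5, 13.7 and 13.97 FPKM in control and 13.4, 14.2 and 14.8 FPKM in PGAM5 KD libraries. The groups overlapped, with means of 13.4 ± 0.789 and 14.1 ± 0.725 FPKM (SD, n = 3) and a log2 fold change of 0.07 (SE 0.06).

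The other 3 ligands were below the mean of 1 FPKM required for the fit. Sema4c, a ligand of plexin-B2, was at 0.156, 0.701 and 0.301 FPKM in control and 0.614, 0.851 and 1.00 FPKM in PGAM5 KD libraries. The groups overlapped, through control 2 and PGAM5 KD 1, and the values rested on 13 to 65 fragments per control library and 62 to 112 per PGAM5 KD library. Of its exon bases 7.27% are shared with D430040D24Rik on the other strand, listed at 0 FPKM in control and 0.0483 FPKM in PGAM5 KD cells. Sema7a, a membrane-anchored ligand of plexin-C1 and beta-1 integrins, had at most 16 fragments in any library and at most 0.199 FPKM. It was at 0 in control 1 and PGAM5 KD 2, so the groups overlapped. Sema6d, a class 6 ligand of plexin-A1, had no fragment in any library. With a limit of 3 fragments, this allows levels of up to 0.0116 to 0.0156 FPKM, depending on the library (counting error only).

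Of the receptors, Plxnb2 (ENSMUSG00000036606, chr15:89155549-89180788, minus strand) was the most abundant of the 10 genes. It encodes plexin-B2, a receptor of class 4 semaphorins that is present on macrophages. Plxnb2 was at 65.4, 63.4 and 65.4 FPKM in control and 66.6, 62.6 and 64.6 FPKM in PGAM5 KD libraries. The groups overlapped throughout, with means of 64.7 ± 1.18 and 64.6 ± 1.99 FPKM (SD, n = 3). The log2 fold change was −0.0024 (SE 0.04) at 8783 to 12158 fragments per library.

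Plxnd1 (ENSMUSG00000030123, chr6:115954811-115995005, minus strand) encodes plexin-D1, best known as the receptor of Sema3E in vessels and immune cells. It was at 34.1, 34.7 and 35.4 FPKM in control and 22.3, 23.4 and 22.2 FPKM in PGAM5 KD libraries. All PGAM5 KD libraries were below all control libraries, with SDs of 0.613 and 0.641 FPKM within the groups. The ratio of PGAM5 KD to control was 0.652 and the log2 fold change −0.60 (SE 0.04), at 3100 to 5118 fragments per library.

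Plxna1 (ENSMUSG00000030084, chr6:89316314-89362620, minus strand) encodes plexin-A1, which in myeloid cells can pair with Trem2 and its adaptor Tyrobp. It was at 6.88, 7.30 and 7.85 FPKM in control and 6.83, 6.29 and 5.37 FPKM in PGAM5 KD libraries. The groups did not overlap, but control 1 and PGAM5 KD 1 were nearly equal, and the log2 fold change was −0.22 (SE 0.09). Of the exon bases of Plxna1, 10.7% are shared with Gm26811 on the other strand, which was listed at 0.0983 FPKM in control and 0.0353 FPKM in PGAM5 KD cells.

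Nrp1 (ENSMUSG00000025810, chr8:128358604-128503363, plus strand), the co-receptor of Sema3a and of VEGF, was at 0.152, 0.182 and 0.126 FPKM in control and 0.0605, 0.135 and 0.134 FPKM in PGAM5 KD libraries. These values came from 13 to 36 fragments per library, and the groups overlapped. The coefficient of variation was 18.5% in control and 39.0% in PGAM5 KD libraries, against 18.8% and 21.9% from counting alone.

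A promoter window is shown for the 2 most abundant plexins, of which one was lower in PGAM5 KD cells and the other level. The windows are the 250 bases before the RefSeq start of Plxnd1 (chr6:115995006-115995255, minus strand, GRCm38.p6) and before one of 2 RefSeq starts of Plxnb2 (chr15:89180789-89181038, minus strand). Both are printed 5′ to 3′ on the gene's strand, with the GC box GGGCGG, or its reverse complement CCGCCC, in capitals.
Plxnd1: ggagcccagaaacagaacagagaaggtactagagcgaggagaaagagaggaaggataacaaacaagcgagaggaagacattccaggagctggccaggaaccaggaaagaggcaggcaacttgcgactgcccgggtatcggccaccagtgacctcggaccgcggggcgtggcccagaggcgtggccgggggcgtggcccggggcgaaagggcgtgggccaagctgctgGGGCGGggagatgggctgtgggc
Plxnb2: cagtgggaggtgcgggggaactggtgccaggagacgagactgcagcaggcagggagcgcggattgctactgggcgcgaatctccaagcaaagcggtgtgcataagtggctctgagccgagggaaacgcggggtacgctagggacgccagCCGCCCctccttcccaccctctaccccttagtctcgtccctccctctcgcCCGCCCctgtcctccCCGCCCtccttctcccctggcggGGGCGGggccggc
The Plxnd1 window held 1 GC box and the Plxnb2 window 4, and these matches describe the letters only. A GC box stood in 14 of 18 windows of the 9 genes with an entry, against 32.7% of all 32851 windows in the RefSeq table. Plxna1 had no entry. Of 5 other motifs searched on both strands, the PU.1 motif (GAGGAAGT) and the interferon-stimulated response element were in 0 of the 18 windows, against 2.44% and 2.98% of all windows. AP-1 (TGANTCA) was in 2 of the 18 windows, of Sema4c and Sema4d, against 6.75% of all windows. The NF-kB consensus was in 2 windows, of Sema4a and Sema4c (3.90% of all windows). The hypoxia element ACGTG was in 4 windows, of Sema4b, Sema4d and Sema6d (16.6% of all windows). RefSeq gives 3 starts for Sema4d, all within the GENCODE gene, and gene-level FPKM does not show which was used.

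Compared as groups, 3 of the 6 ligands and 3 of the 4 receptors reached a mean of 1 FPKM and entered the fit over 10540 genes, each of them with both group means above 1 FPKM. As a description, the fit (limma, adjusted p under 0.05 after Benjamini-Hochberg) listed 0 of these 6 genes as higher after the knockdown and 3 as lower, the ligands Sema4b and Sema4d and the receptor Plxnd1. Over all genes tested 31.7% were called, 16.8% higher and 14.9% lower, and nothing is read from the comparison, since the genes were chosen on this contrast. With FPKM scaled to TPM the share of higher genes among all calls went from 52.9% to 32.3%, and Plxna1 joined the lower genes. With an absolute log2 fold change above 1 as a further condition Sema4d was left, against 1.32% of all genes called in either direction and 0.531% called lower. The PGAM5 KD libraries of Sema4b, Sema4d, Plxna1 and Plxnd1 lay wholly below the control libraries, against 22.9% of all genes, and 47.1% of all genes had groups apart in either direction. The median log2 fold change was −0.24 over the 3 ligands (range −1.39 to 0.07) and −0.22 over the 3 receptors (range −0.60 to −0.0024), against 0.01 over all genes. Each median is the value of 1 gene, Sema4b and Plxna1, so it does not show a shift shared by the ligands or the receptors.

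The order of levels changed among the ligands. In control cells Sema4d was above Sema4b and Sema4b above Sema4a, with no overlap between neighbours. In PGAM5 KD cells the 3 ligands were together, at means of 14.1 FPKM for Sema4a, 13.8 FPKM for Sema4d and 12.8 FPKM for Sema4b, and neighbours in this order overlapped. The ratio of Sema4d to Sema4a within a library was 3.07, 2.66 and 2.79 in control and 1.03, 0.943 and 0.965 in PGAM5 KD libraries. Among receptors the order of means, Plxnb2, Plxnd1, Plxna1 and Nrp1, was the same in both groups, without overlap between neighbours. The ratio of Plxnd1 to Plxnb2 was 0.522, 0.548 and 0.541 in control and 0.335, 0.373 and 0.344 in PGAM5 KD libraries.

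Set against the whole family, Sema4d made up 49.1%, 47.4% and 49.4% of the summed FPKM of all 20 semaphorin genes in control and 26.4%, 24.7% and 25.8% in PGAM5 KD libraries. The semaphorin sum itself was 77.0 to 78.8 FPKM in control and 52.1 to 55.4 FPKM in PGAM5 KD libraries. Sema4a took 16.0% to 17.8% of the sum in control and 25.7% to 26.7% in PGAM5 KD libraries, while its own level hardly differed. Plxnb2 made up 56.6% to 57.6% of the FPKM of the 9 plexin genes in control and 62.9% to 65.6% in PGAM5 KD libraries, and Plxnd1 30.1% to 31.0% and 21.8% to 23.5%. A share depends on all genes of the sum, so it is no separate measurement of the gene.

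**Figure D2:**
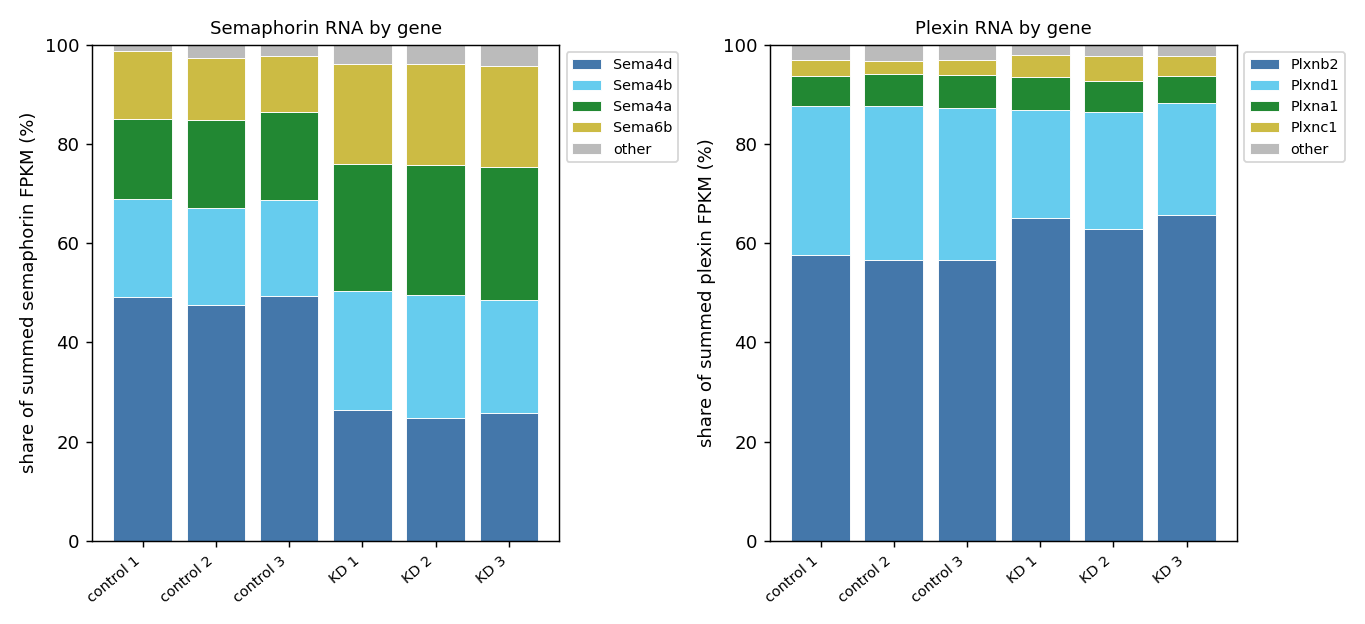
Share (%) of the summed FPKM of the 20 semaphorin genes and of the 9 plexin genes in each of the 6 libraries, as stacked bars. Sema4d takes 47.4% to 49.4% of the semaphorin bar in control and 24.7% to 26.4% in PGAM5 KD libraries, and Plxnb2 is the largest plexin in every library.

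The family has 21 more genes in the lists used, 14 semaphorins, 6 plexins and Nrp2. Of these, 4 entered the fit, 10 were at 0 in all 6 libraries and 14 stayed under 0.1 FPKM in every library. All 7 class 3 semaphorins, the secreted ligands of neuropilin receptors and plexin-D1, were among the latter. Of the 4 tested genes 1 rose and 2 fell in PGAM5 KD cells, against 16.8% and 14.9% of all genes.

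Nrp2 (chr1:62703285-62818695, plus strand), a co-receptor of Sema3f and of VEGF-C, was the most abundant gene of the family. It was at 127.9, 122.8 and 124.6 FPKM in control and 100.0, 92.5 and 92.4 FPKM in PGAM5 KD libraries, without overlap. It fell by 0.40 on the log2 scale (SE 0.04, adjusted p = 0.000593, limma), and it exceeded the low level of Nrp1 in every library.

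Plxnc1, the plexin that binds Sema7a, was at 3.51, 3.04 and 3.29 FPKM in control and 4.51, 5.06 and 4.10 FPKM in PGAM5 KD libraries. Its libraries did not overlap, and it rose by a log2 fold change of 0.37 (SE 0.09, adjusted p = 0.0176, limma). The call was lost without control 2 (adjusted p = 0.0558) without PGAM5 KD 2 (adjusted p = 0.0542) and without the filter on low values (adjusted p = 0.0539), within a range over all alternatives of 0.00107 to 0.0558. Plxna2, a second plexin-A receptor, was at 2.36 ± 0.159 FPKM in control and 1.67 ± 0.0754 FPKM in PGAM5 KD libraries (SD, n = 3). It fell by 0.33 on the log2 scale (SE 0.09, adjusted p = 0.0273, limma), and this call was lost without control 1, control 2, PGAM5 KD 2 or PGAM5 KD 3, with adjusted p of at most 0.0822, as well as with the replicate number as a block (adjusted p = 0.0743) and without the filter on low values (adjusted p = 0.0748). Sema6b, a class 6 ligand, was at 9.77 ± 0.888 and 10.9 ± 0.435 FPKM (SD, n = 3), with overlapping groups (log2 fold change 0.15, SE 0.07, adjusted p = 0.15, limma).

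**Figure D3:**
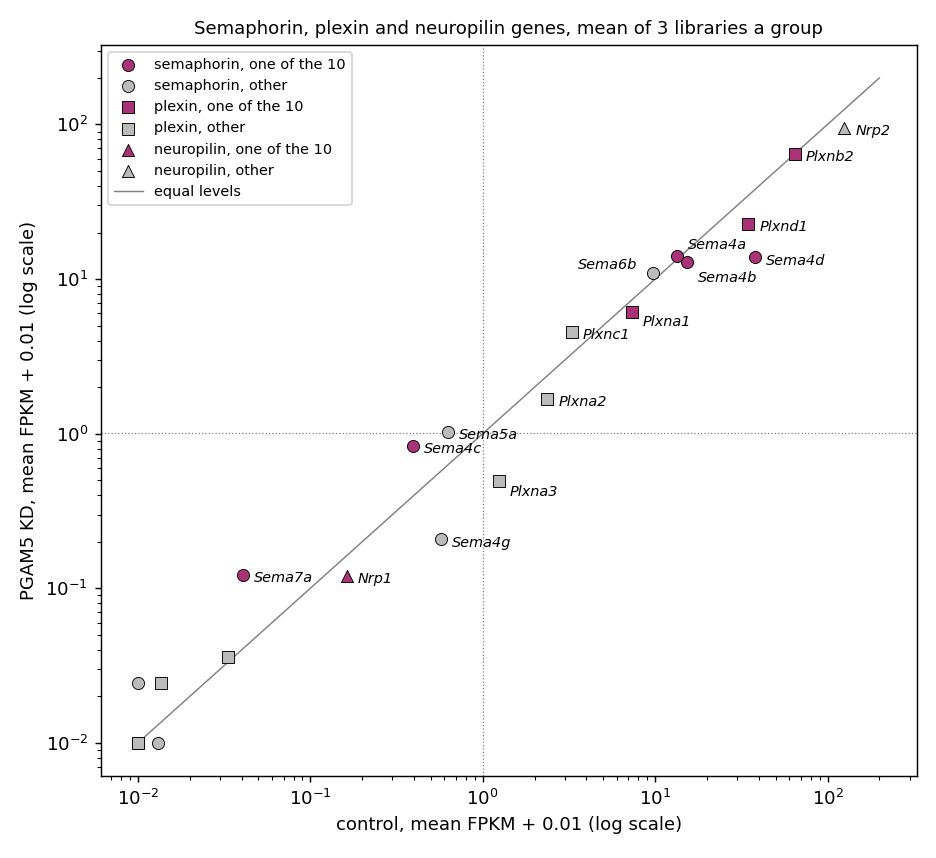
Mean FPKM + 0.01 in PGAM5 KD (vertical axis) against control libraries (horizontal axis), both on log scales, for the semaphorin, plexin and neuropilin genes, with the line of equal levels and dotted lines at 1 FPKM. Sema4d, Plxnd1 and Nrp2 lie below the line, Plxnb2 lies on it, and genes at 0 in every library, Sema6d among them, share 1 point at the lower left.

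Of 12 co-receptors and other semaphorin receptors, 4 entered the fit and 0 passed the adjusted threshold, against 31.7% of all genes. An unadjusted p under 0.05 (limma) was reached by 1 of the 4, against 4510 of all 10540 genes. With voom on recovered fragments 1, Itgb1, passed the adjusted threshold. With 4 genes tested, these counts do not set the co-receptors apart from all genes. Cd72, the receptor of Sema4d on immune cells, was at 46.3 ± 0.717 FPKM in control and 44.4 ± 1.39 FPKM in PGAM5 KD libraries (SD, n = 3), a log2 fold change of −0.06 (SE 0.04, adjusted p = 0.249, limma). It passed the threshold with quantile normalization (−0.11, adjusted p = 0.0498) and on the TPM scale (−0.14, adjusted p = 0.0265). Itgb1, the beta-1 integrin subunit that Sema7a can engage, was at 52.4 ± 1.43 and 57.5 ± 3.48 FPKM (log2 fold change 0.13, SE 0.05, adjusted p = 0.0847, limma). Trem2 and Tyrobp, the partners of plexin-A1, had log2 fold changes of −0.08 and −0.0093, with adjusted p of 0.248 and 0.886 (limma).

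**Figure D4:**
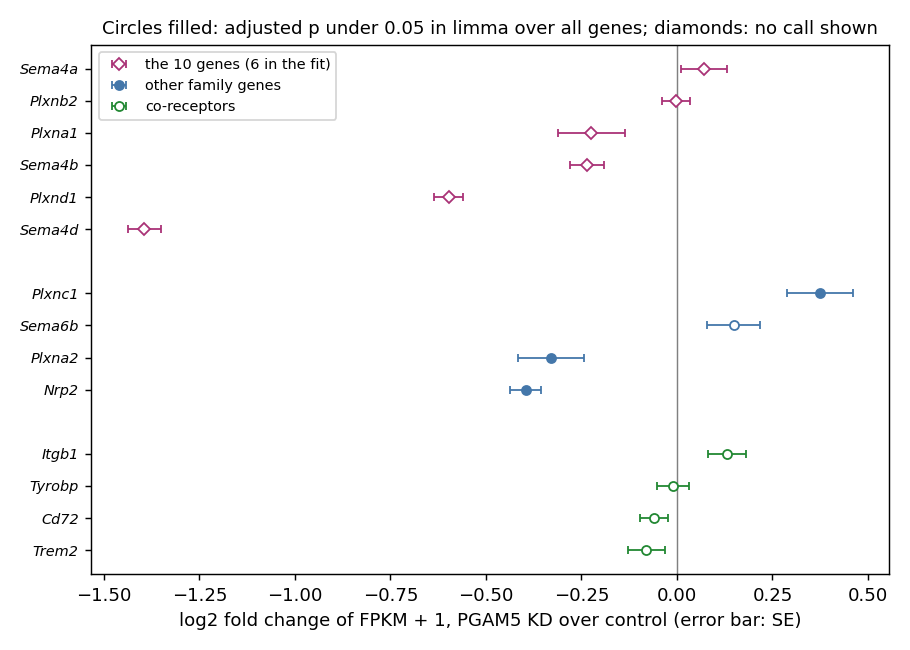
Log2 fold change of FPKM + 1, PGAM5 KD over control, with its SE, for the semaphorin, plexin, neuropilin and co-receptor genes that entered the fit (circles: filled for an adjusted p under 0.05 in limma, open otherwise; diamonds: the genes chosen on this contrast, no call shown). Sema4d lies farthest to the left at −1.39, and Plxnc1 farthest to the right at 0.37.

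Inside the cell, 30 genes of plexin signalling and of the cytoskeletal steps after it were listed, of which 24 entered the fit. In PGAM5 KD cells 10 were higher and 3 lower, against 16.8% and 14.9% of all genes. This list was drawn up with earlier results of these data known, so the counts are a description. Of the 10 higher genes 1 had a control mean below 1 FPKM and entered the fit through its PGAM5 KD libraries, so it had to differ. On the TPM scale 7 were higher and 4 lower, where 1088 of all genes were higher and 2282 lower. The median log2 fold change of the 24 was 0.16. Fyn, a Src-family kinase downstream of plexin-A receptors, rose from 7.34 ± 0.424 to 10.8 ± 1.02 FPKM (SD, n = 3, log2 fold change 0.49, adjusted p = 0.00376, limma).

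Of the Rap and R-Ras genes, whose products plexins act on as GTPase-activating proteins, Rap1a, Rap1b and Rras were among the higher genes and Rras2 was not (log2 fold change 0.02, SE 0.07, adjusted p = 0.884, overlapping groups, limma). Rap1a rose from 39.3 ± 1.64 to 47.3 ± 0.57 FPKM and Rap1b from 148.0 ± 3.78 to 177.5 ± 3.06 FPKM (SD, n = 3, log2 fold changes 0.26 and 0.26, adjusted p = 0.0034 and 0.00121, limma). Rras rose by a log2 fold change of 0.47 (adjusted p = 0.0418, limma), a call that held in 4 of 15 alternatives and only without PGAM5 KD 1 among the 6 fits that left out a library.

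Higher genes also included Gipc1, a scaffold that binds plexins and neuropilins (0.44, adjusted p = 0.0149), Limk2, a kinase of cofilin (0.35, adjusted p = 0.0128), Pak1, a kinase that acts on the cytoskeleton (0.18, adjusted p = 0.0199), and Cfl1, cofilin itself (log2 fold change 0.14, adjusted p = 0.00556, limma). Cfl1 changed sign with quantile normalization (−0.12) and lost its call on the TPM scale (0.06, adjusted p = 0.122), Gipc1 lost its call without PGAM5 KD 3 (adjusted p = 0.0521), and Pak1 lost its call without control 1, control 2, PGAM5 KD 1 or PGAM5 KD 3 (adjusted p of at most 0.0617) and on the TPM scale (0.10, adjusted p = 0.139). The lower genes were Farp2, an exchange factor bound by plexin-A receptors (−0.56, adjusted p = 0.0229), Arhgef12, an exchange factor bound by plexin-B receptors (−0.19, adjusted p = 0.0482), and Arhgap35, a GTPase-activating protein (log2 fold change −0.16, adjusted p = 0.0425, limma). Farp2 lost its call without control 3 or PGAM5 KD 2 (adjusted p of at most 0.0699) and without the filter (adjusted p = 0.0729), and Arhgef12 and Arhgap35 lost theirs whichever single library was left out (adjusted p of 0.0524 to 0.132).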

How the data were processed

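RNA-seq of 3 control and 3 PGAM5 KD libraries of LPS-treated iBMDMs was analysed. The authors deposited FPKM, 1 table per library, per Ensembl gene. The submitters' processing notes name HISAT2 2.0.5, featureCounts 1.5.0-p3 and mm10, and the methods name iDEP. The labels leave directional and non-directional libraries both possible, so genes that overlap on opposite strands cannot be separated. Of 54532 identifiers, 54495 were in GENCODE M21 (GRCm38), which gave symbols, coordinates and exon lengths. FPKM times exon length fell on whole fragments within 0.01 for 96.8% to 97.1% of values under 1000 fragments, which gave depth and fragments per gene.

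Genes averaging 1 FPKM or more over the 6 libraries (10540) were tested on log2(FPKM + 1) with limma 3.58.1 (R 4.3.3, moderated statistics with an intensity trend, two-sided, Benjamini-Hochberg adjustment over all of them). The code was tested on simulated data. Alternatives were a pseudocount of 0.1, no filter, a minimum of 5 FPKM, quantile normalization, TPM, median centring, no trend, the replicate number as a block, each library left out, voom on recovered fragments and, chosen after seeing the data, the Gapdh split as a term. Promoter windows came from RefSeq (GRCm38.p6). A search with blastn 2.17.0 (at least 85% identity over 200 bases) found a look-alike gene for 1 of 14 family genes searched, Sema4b (Gm37366, 0.0202 FPKM).

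The 10 genes and all lists were chosen with earlier results of these data known. Named were the 10 genes, list genes past the threshold, Pgam5 and overlapping genes, except for some effectors that are not reported here. Mir7011, Mir1903 and Gm48718, which share exon bases with Sema4a, Nrp1 and Plxnc1 on the same strand, were listed at 0 FPKM. Sema6b, Rras2, the macrophage markers, the tested co-receptors, Plxna3 and Sema5a were named after their values were seen. No sample was left out.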

Additional observations from a re-analysis of the deposited data

How the results depend on the processing

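Over the 16 alternatives the log2 fold changes of Sema4b, Sema4d and Plxnd1 were −0.32 to −0.21, −1.51 to −1.37 and −0.69 to −0.58. As these genes were chosen on this contrast in the same 6 libraries, their calls in the alternatives are no support. The fit listed these 3 in each alternative, and Plxna1 as well on the TPM scale and with voom (4 genes). Plxnb2 ranged from −0.09 to 0.02 and Sema4a from −0.0027 to 0.11. Of the other family genes 1 (Nrp2, of 2 tested) passed at a minimum of 5 FPKM, and 1 to 3 passed when 1 library was left out. Without a filter 2 passed, Nrp2 and Plxna3. Of the co-receptors 1 passed with quantile normalization and 1 on the TPM scale (Cd72 in both), and 1 with voom (Itgb1). Of the effectors 13 passed in the main setting and 11 on the TPM scale. At a minimum of 5 FPKM 8 (of 16 tested) passed, and 8 to 10 when 1 library was left out. Over all genes 31.7% were called in the main setting, 39.1% at 5 FPKM and 22.2% to 27.1% with 1 library left out. The share was 12.4% without a filter, 30% with quantile normalization, 32% on the TPM scale and 36.8% with voom. Cfl1 reversed to −0.12 with quantile normalization (adjusted p = 0.0305), and the cause was not tested. Same-numbered replicates showed no strong shared deviation (correlations −0.0197, 0.0162 and −0.0516). This cannot show whether same-numbered libraries were prepared together, which the labels do not give. With the replicate block 3 of the 10 genes, 2 other family genes (Nrp2 and Plxnc1, not Plxna2), 0 co-receptors and 10 effectors passed, and calls over all genes went from 3346 to 2652. Sema7a and Nrp1 rested on at most 36 fragments per library and Sema4c on 13 to 112, which limits the precision of their values.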

Other observations

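Some family genes below the mean of 1 FPKM had groups that did not overlap, and they are given here because of their values. Plxna3, a plexin-A receptor on the X chromosome, was at 1.22, 1.02 and 1.44 FPKM in control and 0.381, 0.573 and 0.489 FPKM in PGAM5 KD libraries. All PGAM5 KD libraries were lower, at 66 to 94 fragments against 162 to 222, and without the filter on low values limma gave a log2 fold change of −0.59 (SE 0.11, adjusted p = 0.0224). Sema5a, a transmembrane semaphorin with thrombospondin repeats, was at 0.666, 0.594 and 0.609 FPKM in control and 1.14, 0.946 and 0.990 FPKM in PGAM5 KD libraries. All PGAM5 KD libraries were higher, and the adjusted p without the filter was 0.0612 (limma).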
